A study of Mus musculus with 27 samples.

Results

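The genes described here encode the proteins that coat newly made RNA and help to cut out its introns. They comprise the hnRNP proteins, the SR proteins, the subunits of splicing factor 3, the proteins of the small nuclear ribonucleoproteins (snRNPs) and the U2AF proteins. They were taken by name, as every probe set with a single annotated symbol starting with Hnrn, Srsf, Sf3a, Sf3b, Snrp or U2af. This gave 61 of the 12488 probe sets in the table, for 44 of 8251 genes, and 47 of them (40 genes) were bright enough to be tested. Another 7 probe sets carried several symbols, of which 1 was a family name, and were left out. RNA had been measured in 27 mouse livers, 1 liver per Affymetrix array, in groups of 9 that the labels call Con, Veh and Dex. Those names are not spelled out, and they are kept as written, since the sources used here give no strain, sex, age, dose or time. Values are linear intensities of a probe set, and a change is the difference of group means on the log2 scale, with its standard error (SE). An adjusted p is limma's, with Benjamini-Hochberg adjustment over the 6784 probe sets tested, and 0.05 is the threshold throughout.

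Introns are removed from pre-mRNA by the spliceosome, which is built anew on each intron from snRNPs and many free proteins. U2AF marks the end of an intron, and the SF3a and SF3b complexes, as parts of the U2 snRNP, bind near the branch point, while a ring of Sm proteins forms the core of most spliceosomal snRNPs. SR proteins bind mainly exon sequences and promote their use, and hnRNP proteins bind nascent RNA and often oppose that use, so that the balance between both families helps to set which exons a tissue includes. In the liver, several SR proteins and hnRNPs are known to shape transcripts of metabolic genes.

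The stretch of 250 bases before the start of transcription is shown for 4 genes. Srsf5, Hnrnpk and Hnrnpdl were the members with the smallest p among those that fell in Dex against Con and have 1 promoter window, and Hnrnpab is the member that rose. The sequences are RefSeq's, on GRCm38.p6, written in the direction of transcription. Capitals mark GC boxes (GGGCGG or CCGCCC) and CCAAT boxes (CCAAT or ATTGG).
Srsf5, chr12:80945249-80945498, plus strand: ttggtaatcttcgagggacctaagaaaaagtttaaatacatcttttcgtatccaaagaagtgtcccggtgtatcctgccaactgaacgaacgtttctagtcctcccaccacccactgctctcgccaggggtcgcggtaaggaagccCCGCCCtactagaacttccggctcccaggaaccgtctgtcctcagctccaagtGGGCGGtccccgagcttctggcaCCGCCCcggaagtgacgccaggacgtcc
Hnrnpk, chr13:58402118-58402367, minus strand: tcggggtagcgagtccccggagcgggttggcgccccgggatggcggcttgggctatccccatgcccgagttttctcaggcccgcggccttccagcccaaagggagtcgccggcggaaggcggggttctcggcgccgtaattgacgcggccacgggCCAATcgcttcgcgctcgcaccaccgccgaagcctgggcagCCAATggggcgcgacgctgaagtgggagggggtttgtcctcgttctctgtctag
Hnrnpdl, chr5:100039223-100039472, minus strand: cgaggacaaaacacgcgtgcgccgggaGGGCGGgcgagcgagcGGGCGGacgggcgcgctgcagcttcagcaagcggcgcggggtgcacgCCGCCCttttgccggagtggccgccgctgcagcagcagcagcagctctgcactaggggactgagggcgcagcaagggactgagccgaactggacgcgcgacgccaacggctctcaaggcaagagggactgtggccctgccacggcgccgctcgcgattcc
Hnrnpab, chr11:51606882-51607131, minus strand: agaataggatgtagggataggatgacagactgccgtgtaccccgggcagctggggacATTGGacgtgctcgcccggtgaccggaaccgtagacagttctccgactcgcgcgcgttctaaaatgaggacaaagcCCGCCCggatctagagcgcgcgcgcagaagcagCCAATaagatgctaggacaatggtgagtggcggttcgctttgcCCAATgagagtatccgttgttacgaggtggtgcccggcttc
Srsf5 and Hnrnpdl each had 3 GC boxes and no CCAAT box, and Hnrnpk had 2 CCAAT boxes and no GC box. The window of Hnrnpab held 1 GC box and 3 CCAAT boxes. Neither motif overlapped another here, and TATAAA (or TTTATA) was in 0 of these 4 windows. Over all members, 38 of 44 genes had a window, 49 windows in all, and 69.4% of them held a GC box on either strand against 42.6% of the 21262 protein-coding windows in the table. CCAAT boxes were in 44.9% of the members' windows and in 35.4% of all, and TATA boxes were in 8.16% and 11.6%. The GC content of these windows had a median of 60.8% in the members and 55.6% in all, and a GC box is itself rich in G and C. Such matches describe letters and do not show binding.

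The arrays differed in ways that bear on every change below. Each had a trimmed mean close to 100 (100.1 to 100.2), but the median probe set lay between 17.6 and 33.3, and it was lower in Veh than in Con by 0.28 on the log2 scale (two-sided exact permutation test, p = 0.0313, 0.0705 adjusted over 9 tests). Changes against Con are therefore also read against the median of all tested probe sets, which was -0.19 in Veh and -0.20 in Dex. For beta-actin, the 3' probe set minus the 5' probe set on the log2 scale, a measure of RNA integrity, was 1.27 ± 0.318 (SD, n = 9) in Veh, 0.947 ± 0.243 in Con and 0.886 ± 0.169 in Dex. Dex differed from Veh in it by -0.38 (exact permutation test, p = 0.00152, adjusted p = 0.0137). Hepatocyte genes were bright in every liver, with all 8 probe sets of their list above the array median on all 27 arrays, among them Alb at 12637 to 38074. The 3 probe sets of the leukocyte gene Ptprc and that of Top2a, a gene of dividing cells, were above it on 0 of 27. Over the whole lists, 12, 11 and 9 of 47 leukocyte probe sets and 3, 6 and 2 of 26 probe sets of dividing-cell genes were above it in all 9 livers of Con, Veh and Dex. In such whole-liver RNA, fewer cells of a type and less RNA per cell cannot be told apart.

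Srsf5, Hnrnpk, Hnrnpdl, Hnrnpr, Hnrnpa2b1, Srsf2, Srsf11, Sf3b2 and Snrpe fell in Dex against Con, and Hnrnpab rose. These were 10 of 47 tested probe sets (21.3%), where 16.4% of all tested probe sets passed the same threshold. By direction, 9 members fell (13.2% of all tested probe sets did) and 1 rose (3.26% did). Without a threshold 38 of 47 were lower in Dex (80.9%, where 67.4% of all tested were lower). Their median was -0.41 against -0.20 over all tested, and 35 of 47 lay below that overall median. In no member, in any of the 3 comparisons, were the groups free of overlap, and this was not set against all tested probe sets. With each array centred on its own median, 6 of the 47 passed (6.87% of all tested), and 35 were lower (74.5%, where 49.7% of all tested were). Leaving out the mice numbered 1 to 3 in every group, which leaves 6 per group, left 0 of 47 past the threshold (0.545% of all) while the members' median stayed at -0.41.

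**Figure D1:**
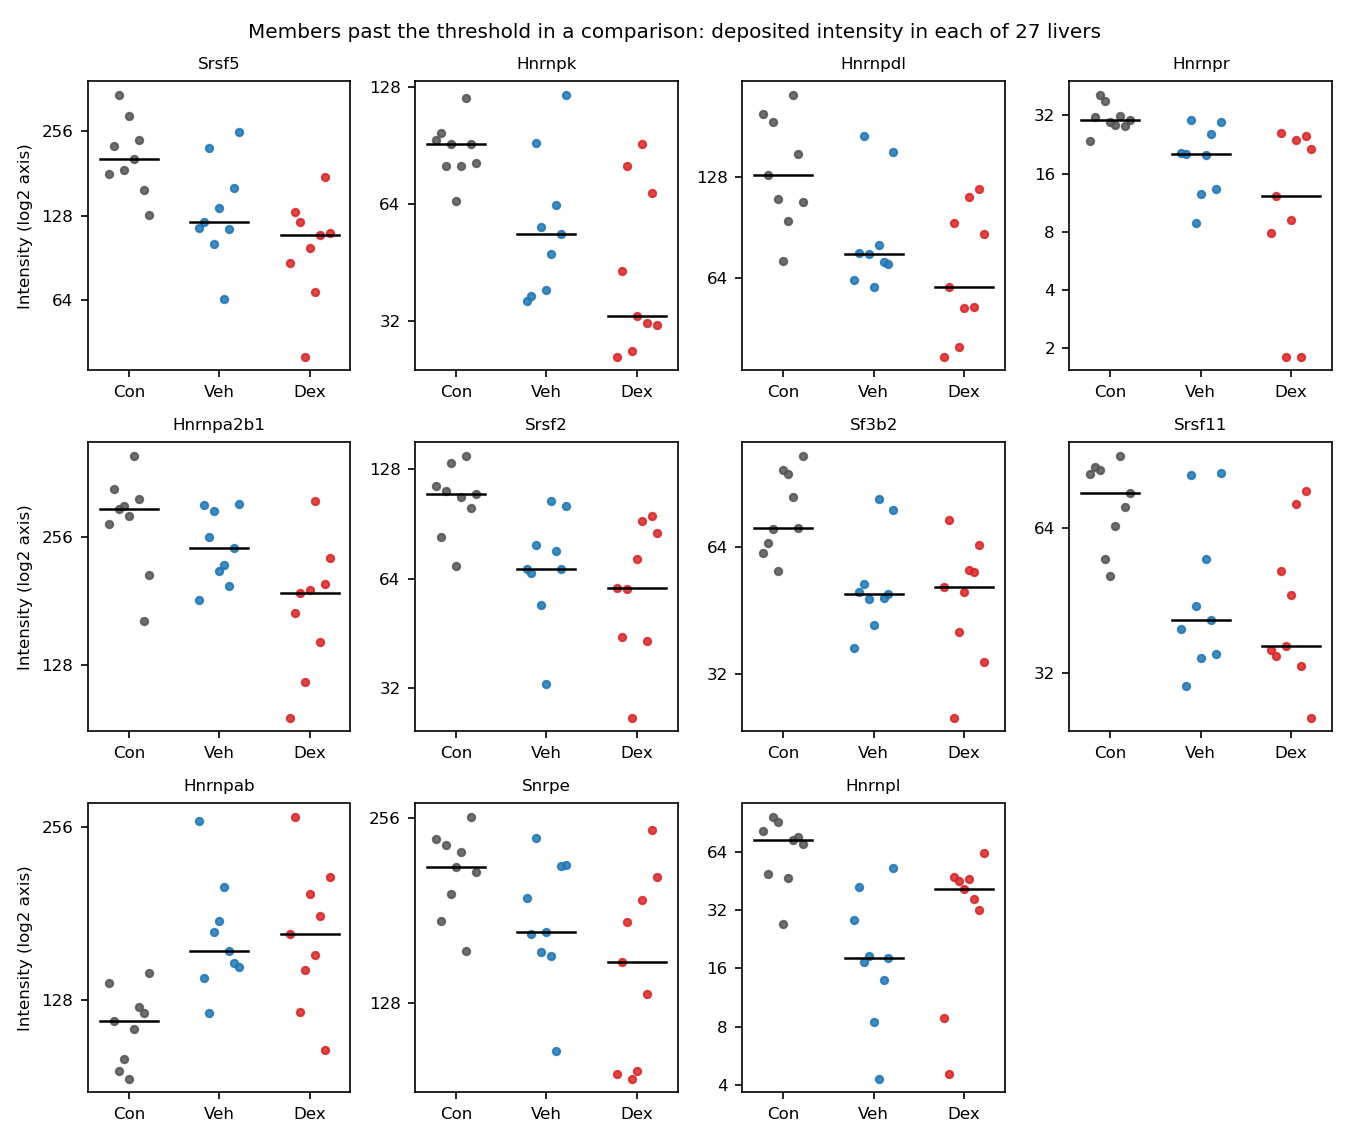
Intensity (log2 axis) of the 11 probe sets past the threshold in Dex vs Con or Veh vs Con, 1 point per mouse and 9 mice per group, with a line at the group's median. The lowest Dex point is below the lowest Con point in all panels but that of Hnrnpab, and the groups overlap in every panel.

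In the hnRNP family 5 of 16 probe sets passed in Dex against Con, 4 lower and 1 higher. That was 31.25%, where 16.4% of all tested passed. The family's median change was -0.58, and 15 of 16 were lower, where 67.4% of all tested were. That direction held for 15 of 16 with quantile normalization and with centred arrays, at medians of -0.38 and -0.37. Hnrnpk (94041_at), which binds C-rich RNA and DNA, ran from 65.1 to 119.6 with a median of 91.2 in Con, from 36.1 to 122.3 with a median of 53.7 in Veh, and from 25.8 to 91.1 with a median of 33 in Dex. All 9 Dex livers were below the Con median and 6 were below the lowest Con liver. The change was -1.04 ± 0.25 (adjusted p = 0.00820), 2.05-fold lower, and -0.84 relative to the median of all tested probe sets.

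Hnrnpdl, a relative of the AU-rich element binding protein Hnrnpd, was read by 2 tested probe sets. The first (96083_s_at) ran from 71.8 to 225.7 with a median of 130.3 in Con, from 60.2 to 170.3 with a median of 75.4 in Veh, and from 37.1 to 118.2 with a median of 60.3 in Dex. Here 5 of 9 Dex livers were below every Con liver, and the change was -0.998 ± 0.26 (adjusted p = 0.0104). The other (96084_at) had medians of 38.5, 30.5 and 27.7 in Con, Veh and Dex, with a change of -0.26 ± 0.28 (adjusted p = 0.566). The suffix _s marks a probe set that can share sequence with other transcripts, so the first reading may not be of Hnrnpdl alone.

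Hnrnpa2b1, which binds RNA in splicing and in transport, also had 2 tested probe sets. The 93117_at set ran from 163 to 398.5 with a median of 298.9 in Con, from 182 to 306.8 with a median of 241.4 in Veh and from 96.1 to 312 with a median of 189.3 in Dex. In 8 of 9 Dex livers it was below the Con median, and the change was -0.68 ± 0.19 (adjusted p = 0.0138, 0.143 with centred arrays). The 93118_at set, above the array median on 10 of 27 arrays, had medians of 31.9, 20.2 and 14 in Con, Veh and Dex, and its change of -1.02 ± 0.39 did not pass (adjusted p = 0.0695).

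Hnrnpr (97491_at), an RNA-binding protein related to Syncrip, ran from 23.6 to 40.9 with a median of 30.2 in Con, from 8.9 to 30.4 with a median of 20.3 in Veh and from 1.8 to 25.8 with a median of 12.2 in Dex. It was above the array median in 7 Con, 4 Veh and 0 Dex livers. Its change of -1.52 ± 0.40 (adjusted p = 0.0119) is thus between a weak signal and one near the floor of 2.6 that was set for the smallest values, and its size is uncertain.

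Hnrnpab, which binds RNA and the CArG box of DNA, went the other way. The tested probe set (94896_at) ran from 93.2 to 142.8 with a median of 117.7 in Con, from 121.5 to 262.7 with a median of 155.9 in Veh, and from 104.8 to 267.3 with a median of 166.7 in Dex. In both other groups 7 of 9 livers were above the highest Con liver. The change was 0.52 ± 0.16 in Dex against Con (adjusted p = 0.0275, 0.0637 without Dex 2 and 0.0523 without Con 3) and 0.52 ± 0.16 in Veh against Con (adjusted p = 0.0638). A second probe set of the gene (95911_at), never above the array median, had medians of 11.8, 6.8 and 3.8 in Con, Veh and Dex and was not tested.

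Among the hnRNPs that did not pass in Dex against Con, Hnrnph1, which binds runs of G, changed by -0.79 ± 0.29 (adjusted p = 0.0563) and Hnrnpl, which binds CA repeats, by -1.17 ± 0.45 (adjusted p = 0.0723). Hnrnpm and Hnrnpd had changes of -0.47 and -0.44 (adjusted p = 0.0716 and 0.106). Both probe sets of Hnrnpul2 (-0.42 and -0.41), and those of Hnrnpll (-0.62), Hnrnpu (-0.53) and Hnrnph3 (-0.22), had adjusted p of 0.171 to 0.740.

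Of the 10 SR protein probe sets, 3 fell in Dex against Con (30%, where 13.2% of all tested fell) and 8 were lower (67.4% of all tested were). The family's median was -0.57 (-0.36 under both other scalings, with 7 of 10 lower under quantile normalization). Srsf5 (99628_at) had the smallest p of all members. It ran from 128.4 to 345.7 with a median of 204.5 in Con, from 64.6 to 253.5 with a median of 121.9 in Veh and from 40 to 176.4 with a median of 109.1 in Dex. All 9 Dex livers were below the Con median and 7 were below the lowest Con liver. The change was -1.10 ± 0.25 (adjusted p = 0.00455), 2.14-fold lower, and -0.90 relative to the median of all tested probe sets. It passed with each of the 27 arrays left out in turn, but not without the mice numbered 1 to 3.

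Srsf11 (96609_at), an SR-related protein, ran from 50.9 to 90.4 with a median of 75.5 in Con, from 30.1 to 83.2 with a median of 41.3 in Veh and from 25.8 to 76.5 with a median of 36.5 in Dex. Below the lowest Con liver lay 6 of 9 in Veh and 6 of 9 in Dex. Its change in Dex against Con was -0.74 ± 0.22 (adjusted p = 0.0238, 0.0826 with quantile normalization and 0.0762 with centred arrays). Srsf3, the smallest classical SR protein, had a change of -1.01 ± 0.38 (adjusted p = 0.0621) on a probe set (101004_f_at) above the array median in 4 Dex livers. Srsf9, Srsf6 and Srsf10 had changes of -0.39, -0.21 and -0.29, with adjusted p of 0.0661 to 0.629.

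The 2 probe sets of Srsf2, an SR protein that binds exonic enhancers, differed in their change. Brighter and dimmer here name the probe sets only, since signals of different probes have no common scale. The brighter (94017_s_at) ran from 682.6 to 997.9 with a median of 797.2 in Con, from 669.9 to 1235.2 with a median of 954.7 in Veh and from 702.2 to 1462.1 with a median of 890.8 in Dex. The dimmer (95791_s_at) ran from 69.3 to 139.4 with a median of 109.6 in Con, from 32.9 to 104.6 with a median of 68.2 in Veh and from 26.5 to 95.3 with a median of 60.5 in Dex. For the brighter the change in Dex against Con was 0.23 ± 0.14 (adjusted p = 0.256), and for the dimmer it was -0.82 ± 0.23 (adjusted p = 0.0158).

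Within an array, the log2 difference between the brighter and the dimmer Srsf2 probe set was 2.94 ± 0.23 (SD, n = 9) in Con, 3.75 ± 0.71 in Veh and 3.99 ± 0.72 in Dex. The Dex mean was 1.05 above the Con mean (two-sided exact permutation test over 48620 splits, p = 0.000823, 0.0173 adjusted over 21 tests, which are 7 genes with 2 tested probe sets in 3 comparisons). The Veh mean was 0.81 above the Con mean (exact p = 0.00527, adjusted p = 0.0553). Because both values come from the same array, array scaling by 1 factor cancels in this difference. It was 0.71 with quantile normalization (adjusted p = 0.0363), and 0.91 without the mice numbered 1 to 3 (adjusted p = 0.295). Both probe sets carry the suffix _s, and which transcripts each reads was not tested.

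**Figure D2:**
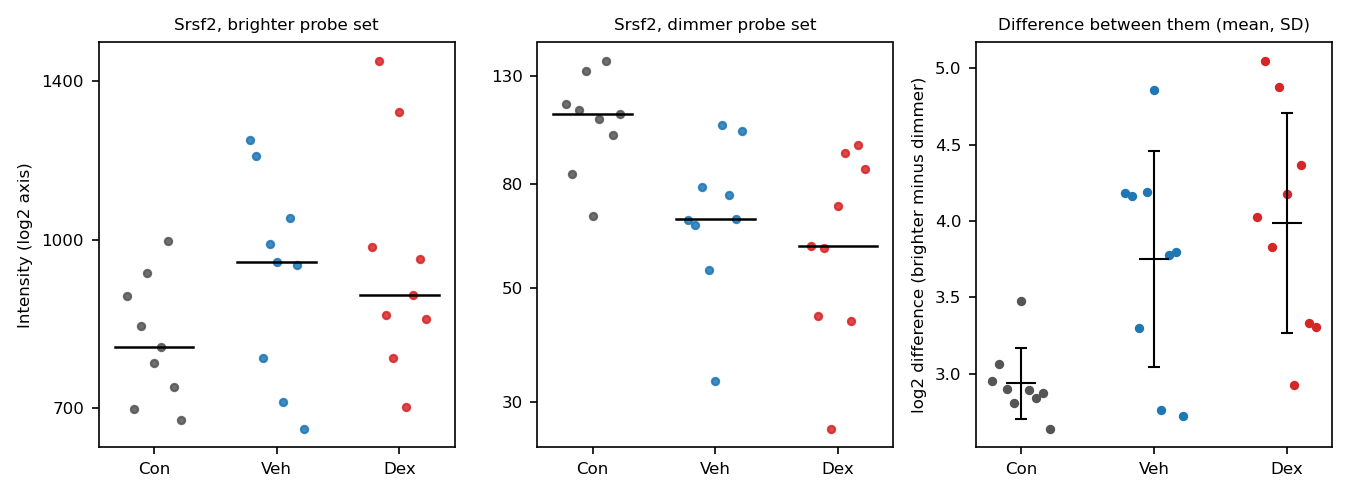
Srsf2 by mouse, 9 mice per group: intensity (log2 axis, line at the median) of the brighter probe set on the left and of the dimmer in the middle, and on the right the log2 difference between them with mean and SD. The difference lies between 2.64 and 3.47 in Con and reaches 4.86 in Veh and 5.05 in Dex.

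Of the other pairs of probe sets, none passed after adjustment. For Srsf4 the difference between its probe sets (104754_at minus 102093_f_at) was 1.17 larger in Dex than in Con (exact permutation p = 0.0127, adjusted p = 0.0665), with changes of 0.07 and -1.10 in the separate probe sets. The difference between the Hnrnpdl probe sets changed by -0.74 in Dex against Con, with an exact permutation p of 0.00827 (adjusted p = 0.0579). For Sf3b1, Hnrnpa2b1, Hnrnpul2 and Sf3a2 the adjusted p in Dex against Con was 0.546 to 0.962.

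In the SF3 group, whose proteins hold the U2 snRNP on the branch point, 1 of 10 probe sets fell in Dex against Con. That was 10%, where 13.2% of all tested fell. In all 8 were lower (67.4% of all tested were), with a median of -0.35 (-0.19 and -0.14 under quantile normalization and centring). Sf3b2 (162091_f_at), an SF3b subunit, ran from 56.1 to 105.2 with a median of 71.1 in Con, from 36.9 to 82.9 with a median of 49.6 in Veh and from 25.2 to 74.1 with a median of 51.5 in Dex. Below the lowest Con liver lay 7 of 9 in Veh and 6 of 9 in Dex. Its change in Dex against Con was -0.68 ± 0.20 (adjusted p = 0.0204, 0.150 with quantile normalization and 0.182 with centred arrays). Which transcripts this probe set, with the suffix _f, reads was not tested.

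Sf3b1, the largest SF3b subunit, had 2 tested probe sets with similar changes. The 96777_at set had medians of 44.3 in Con, 26.5 in Veh and 21.9 in Dex, with a change in Dex against Con of -0.77 ± 0.27 (adjusted p = 0.0510), and the 97808_at set had medians of 99.8, 67.7 and 65.4 with a change of -0.68 ± 0.28 (adjusted p = 0.0925). Sf3b3 was the member of the group with the highest change, 0.30 ± 0.22 (adjusted p = 0.365). The SF3a subunits Sf3a1 and Sf3a3 had changes of -0.27 and -0.34, and both probe sets of Sf3a2 lay at 0.07 and -0.25, with adjusted p of 0.144 to 0.749.

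The Snrp group was split in Dex against Con, with 4 of 8 probe sets lower and a median of 0.02 (3 of 8 lower under both other scalings, with medians of 0.07 and 0.22). Snrpe (97200_f_at), an Sm ring protein, was the 1 of 8 that passed (12.5%, and 16.4% of all tested). It ran from 155.3 to 257.8 with a median of 213.2 in Con, from 106.8 to 238.3 with a median of 167.2 in Veh and from 96 to 245.3 with a median of 149.4 in Dex. Its change of -0.51 ± 0.18 (adjusted p = 0.0469) passed in 9 of 27 sets with an array left out, with an adjusted p of 0.102 without Dex 1, and it did not pass with quantile normalization (adjusted p = 0.213). Which transcripts this probe set, with the suffix _f, reads was not tested either. Among the other Sm proteins, Snrpd3 had a change of -0.58 ± 0.28 (adjusted p = 0.156), Snrpb of 0.41 ± 0.19 (adjusted p = 0.142) and Snrpg of 0.22 ± 0.14 (adjusted p = 0.294). The U1 protein Snrpc had a change of 0.32 ± 0.15 (adjusted p = 0.145) and the U2 proteins Snrpb2 and Snrpa1 had changes of 0.38 and -0.18. Another Snrpb2 probe set (92839_f_at), too dim to test, had medians of 14.9, 18.4 and 6.3 in Con, Veh and Dex. The probe set of Snrp1c-ps2, a pseudogene, had a change of -0.28 ± 0.40 and may read related transcripts.

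In the U2AF group 0 of 3 probe sets passed (adjusted p = 0.216 to 0.695, and 0 at an unadjusted p under 0.05). U2af2, which binds the pyrimidine tract, stood at 360.9 to 589.5 with a median of 488.9 in Con, 358.6 to 562.9 with a median of 433.5 in Veh and 355.2 to 556.7 with a median of 490.4 in Dex. The change of U2af2 in Dex against Con was -0.10 ± 0.12, that of U2af1, which reads the AG at the intron's end, -0.13 ± 0.21 and that of U2af1l4 -0.33 ± 0.18. With centred arrays 1 of 3 was lower, and the group's median turned from -0.13 to 0.07.

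**Figure D3:**
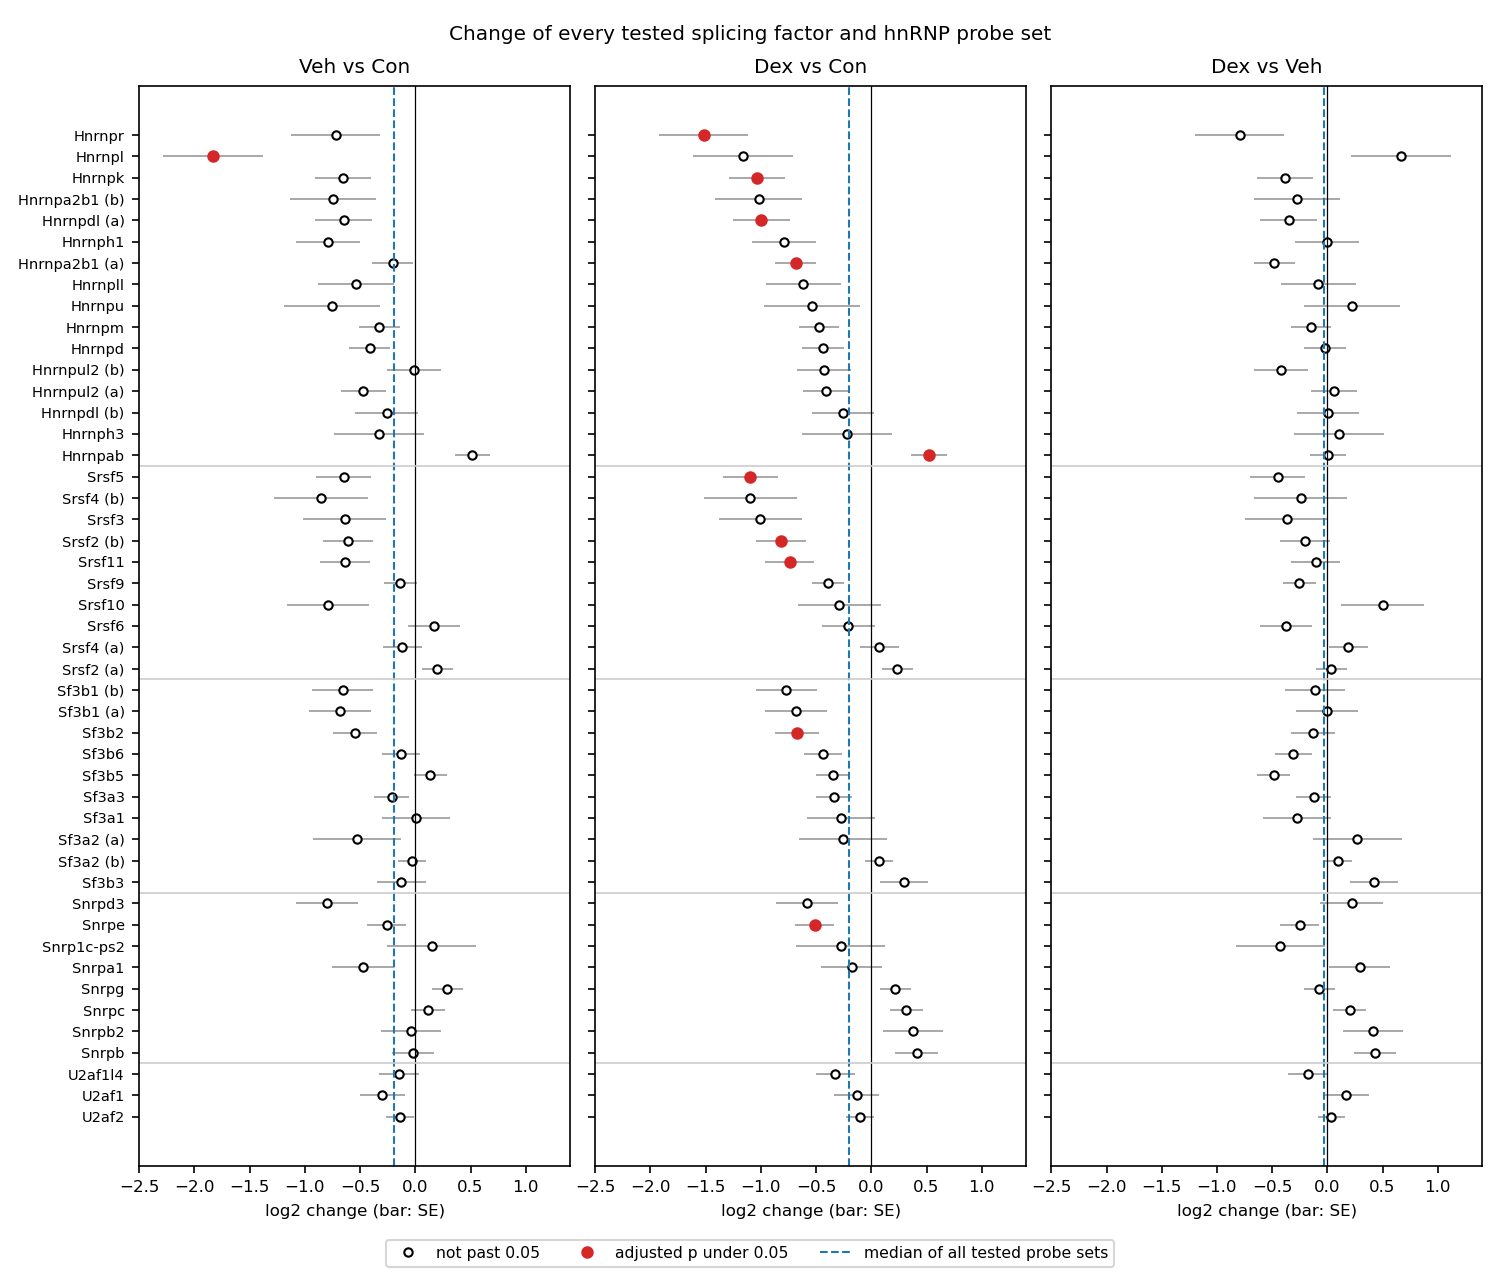
Log2 change with SE of all 47 tested probe sets in Veh vs Con, Dex vs Con and Dex vs Veh, ordered by family (hnRNP, SR, SF3, Snrp and U2AF from top to bottom), with (a) the brighter in Con and (b) the dimmer of a gene's 2 probe sets. Filled points passed the adjusted p of 0.05, and the dashed line is the median of all tested probe sets (-0.19, -0.20 and -0.03).

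In Veh against Con, Hnrnpl fell, and no other of the 47 probe sets passed (2.13% of members, and 3.86% of all tested probe sets, of which 2.67% were lower and 1.19% higher). Hnrnpl (95232_at), which binds CA repeats and regulates exons near them, ran from 27.1 to 96.9 with a median of 73.2 in Con, from 4.3 to 53 with a median of 18.1 in Veh and from 4.6 to 62.7 with a median of 40.9 in Dex. All 9 Veh livers were below the Con median and 6 were below the lowest Con liver. The change was -1.83 ± 0.45 (adjusted p = 0.0245), 3.57-fold lower, with adjusted p of 0.0609 to 0.0718 under the other scalings. Relative to the median of all tested probe sets it was -1.64. The adjusted p was 0.0507 without Con 3 and 0.0603 without Veh 5. Dex stood between both groups, at 0.67 ± 0.45 above Veh (adjusted p = 0.479).

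Without a threshold 39 of 47 members were lower in Veh than in Con (83.0%, where 69.9% of all tested were lower). Their median was -0.33 against -0.19 over all tested. But with centred arrays 25 of 47 were lower (53.2%, where 40.7% of all tested were), at -0.05 against 0.09. At an unadjusted p under 0.05 there were 16 of 47 (23.6% of all tested). The medians of the families were -0.50 for hnRNP, -0.62 for SR, -0.17 for SF3, -0.03 for Snrp and -0.15 for U2AF. With centred arrays they were -0.22, -0.35, 0.11, 0.25 and 0.13, so the last 3 changed sign. Leaving out Veh 9, the Veh liver with the highest mean of the members, raised the count past the threshold from 1 to 8 while the share of all tested probe sets rose from 3.86% to 8.64%, and leaving out Veh 3 gave 3 members and 5.20% of all. Taking out the liver highest on these same members lowers their Veh mean by construction, so the rise without Veh 9 is no independent result.

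Besides Hnrnpl and Hnrnpab, the smallest p in Veh against Con belonged to Srsf11 (-0.64 ± 0.22, adjusted p = 0.0924), Snrpd3 (-0.80 ± 0.28, adjusted p = 0.0938), Sf3b2 (-0.55 ± 0.20, adjusted p = 0.0998) and Hnrnph1 (-0.79 ± 0.29, adjusted p = 0.102). Snrpd3, an Sm ring protein, ran from 40.2 to 102.7 with a median of 68.1 in Con, from 19.2 to 140.4 with a median of 36 in Veh and from 23.8 to 64.8 with a median of 48.7 in Dex. Veh 9 was the highest of all 27 livers for it, and 6 of 9 Veh livers were below the lowest Con liver. Hnrnph1 had medians of 93.3, 57.5 and 66.2 in Con, Veh and Dex, and it too had 6 of 9 Veh livers below the lowest Con liver.

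No member passed in Dex against Veh (0 of 47), where 0.265% of all tested probe sets did (18 of 6784), 0.221% lower and 0.0442% higher. At an unadjusted p under 0.05 there were 3 of 47 members, against 15.2% of all tested. Lower in Dex were 27 of 47 (57.4%, and 53.4% of all tested), with a median of -0.08 against -0.03 over all tested. The count stayed at 0 under every alternative setting tried and with each array left out in turn.

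The member nearest to the threshold was Sf3b5 (95732_at), the smallest SF3b subunit. It ran from 94.5 to 212 with a median of 160.2 in Con, from 116.4 to 210 with a median of 173.9 in Veh and from 92.8 to 143.7 with a median of 119.1 in Dex. All 9 Dex livers were below the Veh median and 3 were below the lowest Veh liver, with a change of -0.48 ± 0.15 (adjusted p = 0.118). Sf3b6, which contacts the branch point, had all 9 Dex livers below the Veh median as well, at -0.31 ± 0.17 (adjusted p = 0.380).

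Next in Dex against Veh came Hnrnpa2b1 (93117_at) at -0.48 ± 0.19 (adjusted p = 0.206), Hnrnpr at -0.80 ± 0.40 (adjusted p = 0.348), and on the higher side Snrpb at 0.43 ± 0.19 (adjusted p = 0.277) and Sf3b3 at 0.42 ± 0.22 (adjusted p = 0.356). Snrpb (160555_r_at), an Sm ring protein, had medians of 1878.2 in Con, 2001.5 in Veh and 2523.9 in Dex. A second Snrpb probe set (161335_r_at), near the floor and not tested, had medians of 2.4, 9.2 and 3.8 in Con, Veh and Dex. The Srsf5 change was -0.45 ± 0.25 (adjusted p = 0.383) and that of Hnrnpk was -0.38, neither past the threshold. Since Veh vs Con and Dex vs Con use the same 9 Con livers, a low value in both is not 2 independent observations.

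Livers of 1 group differed from each other. The mean log2 intensity of the 47 members, relative to the mean of the Con livers, lay between -0.17 and 0.12 in Con, between -0.70 (Veh 5) and 0.15 (Veh 9) in Veh, and between -0.90 (Dex 4) and -0.09 (Dex 3) in Dex, with medians of -0.42 in Veh and -0.41 in Dex. The same mean over all tested probe sets ran from -0.35 to 0.01 in Veh and from -0.42 to 0.06 in Dex. Liver by liver, the members' value minus that of all tested probe sets lay between -0.11 and 0.08 in Con. It lay between -0.38 (Veh 5) and 0.14 (Veh 9) in Veh and between -0.57 (Dex 4) and -0.004 (Dex 2) in Dex. This difference was not tested beyond the scalings above.

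**Figure D4:**
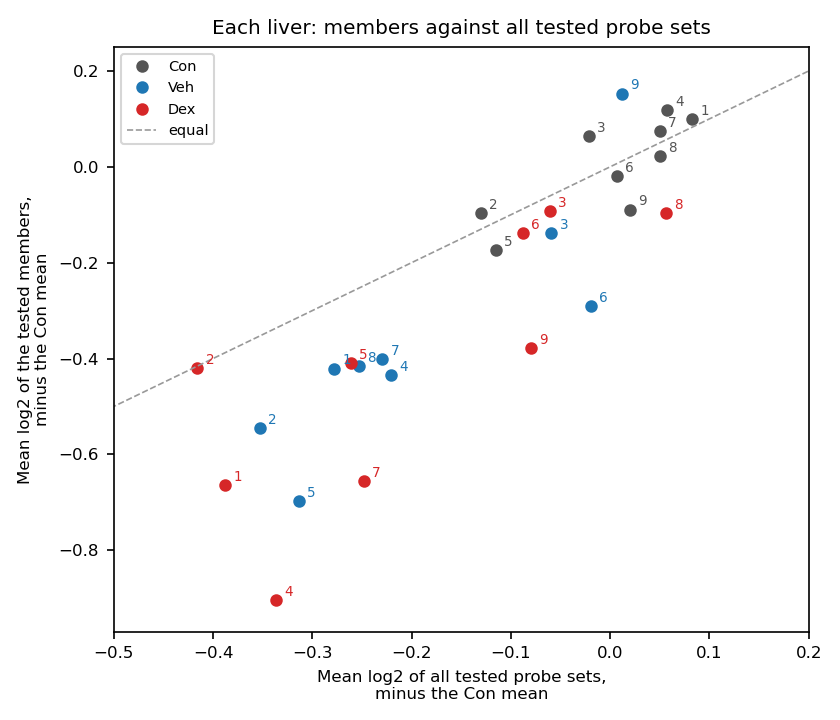
Each point is a mouse, labelled by its number: mean log2 intensity of all 6784 tested probe sets (x axis) and of the 47 members (y axis), both relative to the mean of the 9 Con mice, with a dashed line where they are equal. Con mice lie within -0.17 to 0.12 for the members, while Veh and Dex mice reach down to -0.70 and -0.90, mostly below the line.

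Counted by liver, the members below the lowest Con liver numbered from 3 of 47 (Veh 9 and Dex 8) to 25 of 47 (Dex 4). In Dex 4 that was 53.2% of members and 34.1% of all tested probe sets, in Dex 7 it was 51.1% and 32.2%, and in Veh 5 it was 48.9% and 29.4%. Dex 3 had fewer, with 8.51% of members and 20.4% of all tested. The spread between livers was wider outside Con, with a median SD over members of 0.31 in Con, 0.50 in Veh and 0.56 in Dex, where all tested probe sets had 0.38, 0.47 and 0.57.

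**Figure D5:**
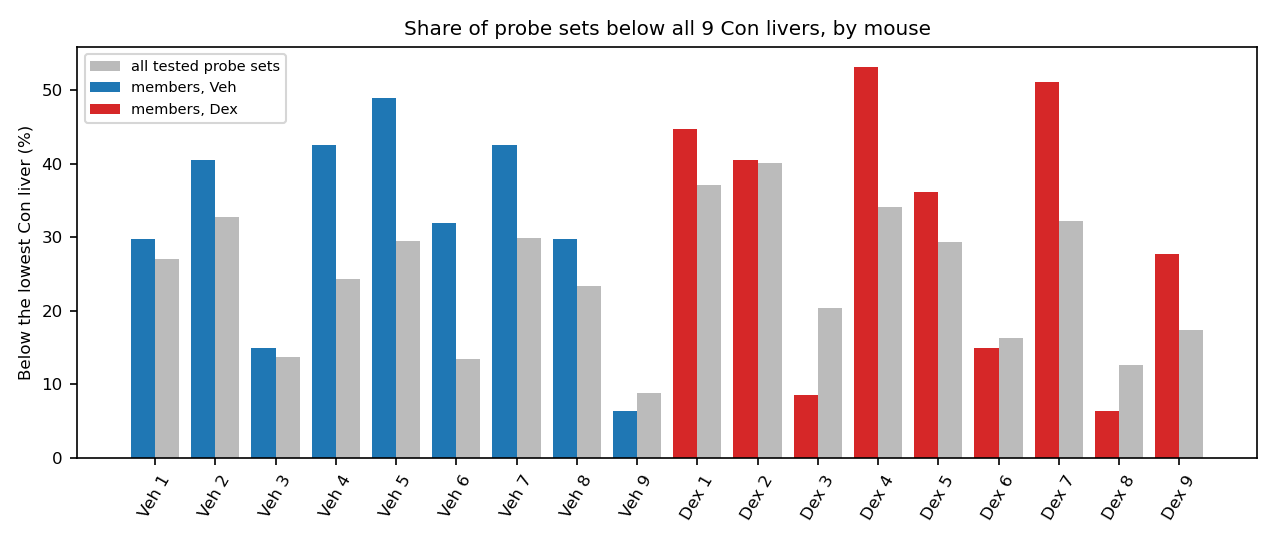
Percent of the 47 members and of all 6784 tested probe sets that lay below the lowest of 9 Con mice, for each Veh and Dex mouse. Members exceed all tested probe sets most in Dex 4, Dex 7 and Veh 5, and fall short of them in Dex 3, Dex 6, Dex 8 and Veh 9.

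Other splicing genes were read from 4 lists. In the list of other splicing regulators, 11 of 31 tested probe sets (28 genes) fell in Dex against Con and 0 rose, with a median of -0.44. That was 35.5% of the list, where 13.2% of all tested probe sets fell. Under quantile normalization and centring 7 and 6 fell (22.6% and 19.4%), where 9.71% and 6.87% of all tested passed in either direction. Mbnl1, a regulator of alternative exons, changed by -0.87 ± 0.16 (adjusted p = 0.000732), Nono, a paraspeckle protein, by -0.96 ± 0.17 (adjusted p = 0.000781), the helicase Ddx5 by -0.92 ± 0.20 (adjusted p = 0.00337) and Qk, a STAR family protein, by -1.07 ± 0.24 (adjusted p = 0.00444). Mbnl1 (-0.62 ± 0.16, adjusted p = 0.0281), Qk (-0.86 ± 0.24, adjusted p = 0.0414) and Nono (-0.62 ± 0.17, adjusted p = 0.0418) also fell in Veh against Con. They were the only 3 of that list to pass there (9.68%, and 3.86% of all tested).

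In the core spliceosome list, 5 of 44 tested probe sets passed in Dex against Con (11.4%, below the 16.4% of all tested). Snw1 (-0.92), Sart3 (-0.79), Ik (-0.85) and Eftud2 (-0.58) fell and Sf1, which recognises the branch point first, rose (1.10 ± 0.37, adjusted p = 0.0391). With quantile normalization 0 fell and 3 rose (6.82%, where 9.71% of all tested passed). With centred arrays 0 fell and 1 rose (2.27%, where 6.87% of all tested passed). Under these scalings 26 and 29 of 44 were still lower (36 of 44 before), with lowest changes of -0.73 and -0.72 (-0.92 before). Among SR protein kinases and snRNP assembly factors 1 of 12 passed (8.33%, and 16.4% of all tested), Smn1 at -0.61 ± 0.21 (adjusted p = 0.0432). Under both other scalings 0 of the 12 did, where 9.71% and 6.87% of all tested passed. Of the exon junction and mRNA export factors 0 of 6 passed in Dex against Con (1 at an unadjusted p under 0.05), while the export receptor Nxf1 fell in Veh against Con (-1.38 ± 0.35, adjusted p = 0.0281). Nxf1 was 1 of 6 there (16.7%, and 3.86% of all tested passed), and under both other scalings 0 of 6 passed. In Dex against Veh 0 probe sets of these 4 lists passed (0.265% of all tested did). At an unadjusted p under 0.05 there were 4 of 44 core spliceosome probe sets, 2 of 31 of other regulators, 1 of 12 of kinases and assembly factors and 1 of 6 of export factors. Over all tested probe sets that share was 15.2%. Without the mice numbered 1 to 3, 0 probe sets of these 4 lists passed in Dex against Con (0.545% of all tested did).

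Of the 8 hepatocyte probe sets, Cps1 (0.75), Apoa1 (0.67) and Alb (0.61) rose in Dex against Con, where 3.26% of all tested rose. Another 3 of the 8 were lower (down to -0.39) and did not pass. The summed intensity of the list had medians of 53398.5 in Con, 62727.9 in Veh and 76704.2 in Dex (ranges 43370.5 to 76200, 45742.8 to 92333.9 and 49415.4 to 112259), a sum to which very bright genes such as Alb and Apoa1 add most. With quantile normalization 4 of the 8 were lower, at a median of -0.03, and 1 higher and 1 lower passed (9.71% of all tested did). Leukocyte genes summed to medians of 2130 in Con, 2064.6 in Veh and 1884.8 in Dex over 47 probe sets, with ranges of 1461.1 to 2841.3, 1343.1 to 4299 and 1348.8 to 2416.1. Of these genes, Cd5l (-0.99) and Ctss (-0.95) fell in Dex against Con, 2 of 18 tested (11.1%, and 16.4% of all tested passed). In the other direction, 7 of the 18 were higher (up to 0.54), and 0 of 18 passed with quantile normalization. Genes of dividing cells summed to 572.6, 562.7 and 523.9 over 26 probe sets (416.1 to 724, 467.2 to 890.5 and 407.7 to 692.8). There 1 of 9 tested (11.1%), Ccnb2, fell in Dex against Con (-0.81). Another 3 of the 9 were higher (up to 0.93), and 0 of 9 passed with quantile normalization. The part of these cell type genes in the changes of the members was not tested.

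The 14 probe sets too dim to test were above the array median on at most 8 of 27 arrays. Hnrnpa1, Hnrnpc, Hnrnph2 and Srsf1 had no other probe set, so no test was made for these 4 genes. Hnrnpc (160199_at), which binds U-rich tracts of introns, ran from 21.8 to 39.1 with a median of 30.6 in Con, from 11.7 to 41.7 with a median of 13.1 in Veh and from 0.7 to 37.7 with a median of 16.1 in Dex. Hnrnpa1 (92724_at), a classical antagonist of SR proteins, had medians of 19.1, 15.1 and 13.9 and Hnrnph2 (94832_at) had 16.5, 13.4 and 13. Of the 4 probe sets of Srsf1, the founding SR protein, the brightest (104586_at) had medians of 25.8, 19.2 and 22.5, and the others were below 13 in every group's median. The groups of these probe sets overlapped as well.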

How the data were processed

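Each probe set has 1 deposited intensity, on a linear scale, for each of 27 arrays. The authors' scaling shows only in the values (trimmed means of 100.1 to 100.2), and the sources used here name no software for summarising the probes. A floor of 2.6 (the 10th percentile of positive values) was applied before taking log2. Probe sets above their array's median on at least 9 of 27 arrays were tested, and 66 control probe sets were left out. A single limma fit (version 3.58.1, R 4.3.3) gave the means of all groups from 27 arrays (lmFit, eBayes with a mean trend, 24 residual degrees of freedom, two-sided, Benjamini-Hochberg over 6784 probe sets, threshold 0.05). The script was tested on simulated data.

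Named in the text are members past the threshold (at most 12 per comparison, by p), the 6 with the smallest p where fewer passed, and other members by group. Of the other lists, at most 4 genes per comparison that passed are named by p, and Sf1, Cps1, Apoa1, Alb, Cd5l, Ctss and Ccnb2 were named beyond that rule, after their values were seen. Quality measures and probe set pairs were compared by exact permutation. The members and lists were chosen with earlier results of these data known. Symbols are those of the array annotation, and 61 of 61 members matched a reference gene table by gene number with 0 symbols changed. Motifs were searched in RefSeq promoter windows (GRCm38.p6). Arrays give no counts, and precision depends on their number and on how far a signal stands above the floor. Alternatives were other scalings, floors, filters, the replicate number as a block, RNA ratios as covariates, array weights, no mean trend, fewer groups and fewer mice.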

Additional observations from a re-analysis of the deposited data

How the results depend on the processing

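In Dex vs Veh the count of members past the threshold was 0 under all alternatives run. In Veh vs Con it was 1 (3.86% of all tested probe sets), and it became 0 with arrays centred on their median (1.39% of all). It was also 0 with the beta-actin ratio or the Gapdh ratio as a covariate and without the mice numbered 4 to 6. With only Veh and Con in the fit it was 3, and with array weights it was 13 (17.1% of all tested probe sets). Quantile normalization also gave 1 (1.25% of all), but it was Hnrnpab, higher, and not Hnrnpl. In Dex vs Con it was 10 (16.4% of all), and it became 6 with centred arrays (6.87% of all). It was 0 without the mice numbered 1 to 3 (0.545% of all) and 5 without those numbered 4 to 6 (4.51% of all). The cause was not tested, and the settings without some of the mice also leave fewer mice per group. Leaving out the numbers 4 to 6 or 7 to 9 was chosen after seeing the data, as were all alternatives for the Srsf2 probe set difference. Without 1 array the counts ran from 0 to 8 in Veh vs Con (0 without Con 3 or Veh 5, 2 without Dex 2 or Dex 8, 3 without Veh 3, 8 without Veh 9), where the share of all tested probe sets ran from 1.25% to 8.64%, and from 8 (without Con 3) to 15 (without Dex 6 or Dex 8) in Dex vs Con, where that share ran from 11.6% to 21.9%. Of the members chosen for a comparison by their p, 0 reversed direction in it. They were chosen for a small p in these same arrays, so this is no independent check. Of the U2AF probe sets, all lower in Dex vs Con, 1 of 3 was still lower with centred arrays. Sf3b2, Srsf11 and Snrpe lost their call in Dex vs Con both with quantile normalization and with centred arrays. Hnrnpa2b1 lost it with centred arrays and kept it with quantile normalization (adjusted p = 0.0439). Hnrnpl lost its call in Veh vs Con under both scalings.

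With the replicate number as a block the counts were 14 for Dex vs Con (16.5% of all tested probe sets), 1 for Veh vs Con (4.58%) and 0 for Dex vs Veh (0.0442%). Deviations of same-numbered mice correlated at -0.20 to 0.19 with a median of 0.01, and 4 of 27 pairs were over 0.1. Among pairs with different numbers, 22 of 216 were. The labels do not say what the numbers stand for, and such correlations cannot show that they mark no pairing or batch. Without 1 array the difference in the beta-actin log2 ratio ran from 0.24 to 0.37 in Veh vs Con, and its unadjusted exact p missed 0.05 without Con 4 or Con 8. That in the array median ran from -0.33 to -0.23 in Veh vs Con, missing 0.05 in 7 of 18 sets, and from -0.26 to -0.15 in Dex vs Con, passing it without Dex 8. An array has no counts, and members near the floor, such as Hnrnpr in Dex, limit what a size means.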
